A study of Mus musculus with 12 samples.

Results

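The 10 genes described here, Fos, Fosb, Jun, Junb, Egr1, Atf3, Ier2, Ier3, Nr4a1 and Dusp1, are immediate early genes that are often read as signs of stress during tissue dissociation. They were chosen by symbol from the 26264 gene symbols counted in each library, and all 10 passed the filter on low counts that left 17002 genes for testing. RNA-seq was performed on glomeruli isolated from male mice, 8 weeks old, of the BALB/c substrains BALB/cAJcl (AJcl, written BALB/cAjcl in the labels) and BALB/cByJcl (ByJcl). Each of the 4 groups holds 3 libraries: untreated AJcl, untreated ByJcl, and each substrain at Day 5 after 1 intravenous dose (10 mg/kg, behind the eye, under isoflurane) of adriamycin (ADR, doxorubicin hydrochloride). No genotype was engineered. The labels call the baseline mice untreated and also mention controls given saline, and whether the baseline mice were injected is not settled by them. All 12 libraries came from kidneys perfused with magnetic beads, minced, digested with collagenase and separated on a magnet, so the levels of these genes in undigested tissue were not measured here. The AJcl Day 5 replicate 1 library, named A-ADR1 in the study and left out there for reduced glomerular purity, was left out of the fit and is shown in all values by library.

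Immediate early genes are transcribed within minutes of a stimulus without new protein synthesis, because the factors that switch them on are already present in the cell. MAP kinase signalling acts on serum response factor and its ternary complex partners at CArG boxes, and on CREB family proteins at cyclic AMP response elements, and many of the transcripts are unstable, so that a pulse of transcription fades quickly. Fos and Jun family proteins pair to form the AP-1 transcription factor, Atf3 can join such pairs, and enzymatic digestion of kidney and other tissues is known to raise several of these transcripts.

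The promoters of the 10 genes were read from GRCm39 as the 500 bases before the start of the canonical transcript in GENCODE vM39, a length chosen after the data had been seen. The CArG box, the recognition sequence of serum response factor, lay 303 bases upstream of the Fos start and 266 bases upstream of the Fosb start, and was found in 2.76% of 21751 protein-coding promoters searched on both strands. The full cyclic AMP response element TGACGTCA lay 43 bases upstream of Ier2 and 96 bases upstream of Dusp1, and was found in 1.96% of promoters. These 4 sites are printed because they are the elements through which the kinase pathways above are known to act. Each stretch is in the direction of the gene, with the motif in capitals. The Fos stretch is chr12:85520325-85520394 on the plus strand, the Fosb stretch chr7:19044203-19044272, the Ier2 stretch chr8:85389489-85389556 and the Dusp1 stretch chr17:26727552-26727619, all 3 of these on the minus strand.
Fos: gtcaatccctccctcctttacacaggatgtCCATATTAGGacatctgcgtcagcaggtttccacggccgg
Fosb: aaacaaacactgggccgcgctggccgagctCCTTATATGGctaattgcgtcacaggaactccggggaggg
Ier2: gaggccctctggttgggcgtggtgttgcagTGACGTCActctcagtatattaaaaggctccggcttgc
Dusp1: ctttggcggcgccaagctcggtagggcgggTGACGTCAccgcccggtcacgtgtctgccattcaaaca

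The short form TGACG, which also lies within TGACGTCA, was present in 8 of the 10 promoters and in 25.8% of all promoters. Only the Atf3 and Ier3 windows lacked it. TATAAA was found 27 bases before the Fos start and 30 bases before the Junb start, on the strand of the gene. It was also found 195 bases before the Nr4a1 start on the opposite strand, and in 24.3% of promoters on either strand. The GC-rich element GCGGGGGCG lay 44 bases before the Fosb start and occurred in 2.86% of promoters. None of the 10 windows held the AP-1 element TGAGTCA (7.57% of promoters), the EGR element in its form GCGTGGGCG (0.731%) or the classical NF-kappa-B element (0.189%). These are matches of letters in 1 window for each gene, and binding was not measured.

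Total counts ranged from 42198416 to 54687045 for each library, and the 10 genes summed to a share of 0.292% to 0.640%. The lowest count of any of them was 600, for Atf3 in AJcl baseline replicate 1. Podocyte marker RNA was abundant in every library, with a summed level between 7079 and 20237 CPM of total counts for 8 markers. Annotated long noncoding RNAs on the opposite strand overlap Jun, Junb and Ier3 in GENCODE vM39, and the strand setting of the counting was not given in the sources used here. The p-values measure the spread between the libraries of a group.

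Levels between genes were compared per kilobase of the canonical transcript, as TMM-scaled CPM per kb, where CPM divides counts by the scaled library size. In untreated AJcl the order was Dusp1 at 316 ± 41.96 (SD, n = 3), Jun at 263 ± 10.5, Junb at 249 ± 18.7, Fos at 219 ± 21.9, Ier2 at 133 ± 12.8, Egr1 at 104 ± 26.7, Nr4a1 at 100.2 ± 28.9, Ier3 at 43.4 ± 4.74, Fosb at 22.0 ± 5.62 and Atf3 at 9.74 ± 2.7. The ranges of the neighbours Jun and Junb, Junb and Fos, and Egr1 and Nr4a1 overlapped. In ByJcl at Day 5 Junb took first place at 540 ± 52.3 CPM per kb, followed by Dusp1 at 485 ± 123 and Fos at 383 ± 56.5, and these 3 ranges overlapped in that order. Ier3, Fosb and Atf3 held the last 3 places in every group.

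The ratio of Junb to Jun per kilobase was 0.947 ± 0.0589 (SD, n = 3) in untreated AJcl and 1.17 ± 0.241 in untreated ByJcl. At Day 5 it was 1.401 ± 0.293 in AJcl over 3 libraries and 1.81 ± 0.256 in ByJcl. The AJcl Day 5 mean includes A-ADR1, which had the highest value, 1.69, against 1.11 in replicate 2 and 1.403 in replicate 3. Part of the AJcl difference in means thus rests on the library left out of the fit. Replicates 2 and 3 also lay above the highest untreated AJcl value of 1.02. The ratio of Fos to Jun was 0.834 ± 0.0591 and 0.832 ± 0.157 at baseline, and 1.04 ± 0.0529 and 1.29 ± 0.256 at Day 5, in AJcl and ByJcl. A-ADR1 was again part of the AJcl Day 5 mean. Both means were higher at Day 5 than at baseline in each substrain, which is given as a description without a test.

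The first comparison was Day 5 against baseline in ByJcl, which asks how the genes differed after ADR within that substrain. Of the 10 genes, 5 rose at an adjusted p below 0.05 (edgeR quasi-likelihood test, Benjamini-Hochberg adjustment over 17002 genes), namely Fos, Fosb, Junb, Atf3 and Ier3, and none fell. Over all genes tested, 5.75% were called higher. DESeq2 called 7 of the 10 higher, adding Ier2 and Egr1, where it called 8.95% of all genes higher and 6.90% lower. The log2 fold change was positive for all 10 genes, with a median of 0.81 against 0.01 over all genes tested. Baseline and Day 5 counts were deposited in separate tables. A difference in how the tables were made, or in how baseline and Day 5 mice and kidneys were handled, cannot be told apart from ADR.

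**Figure D1:**
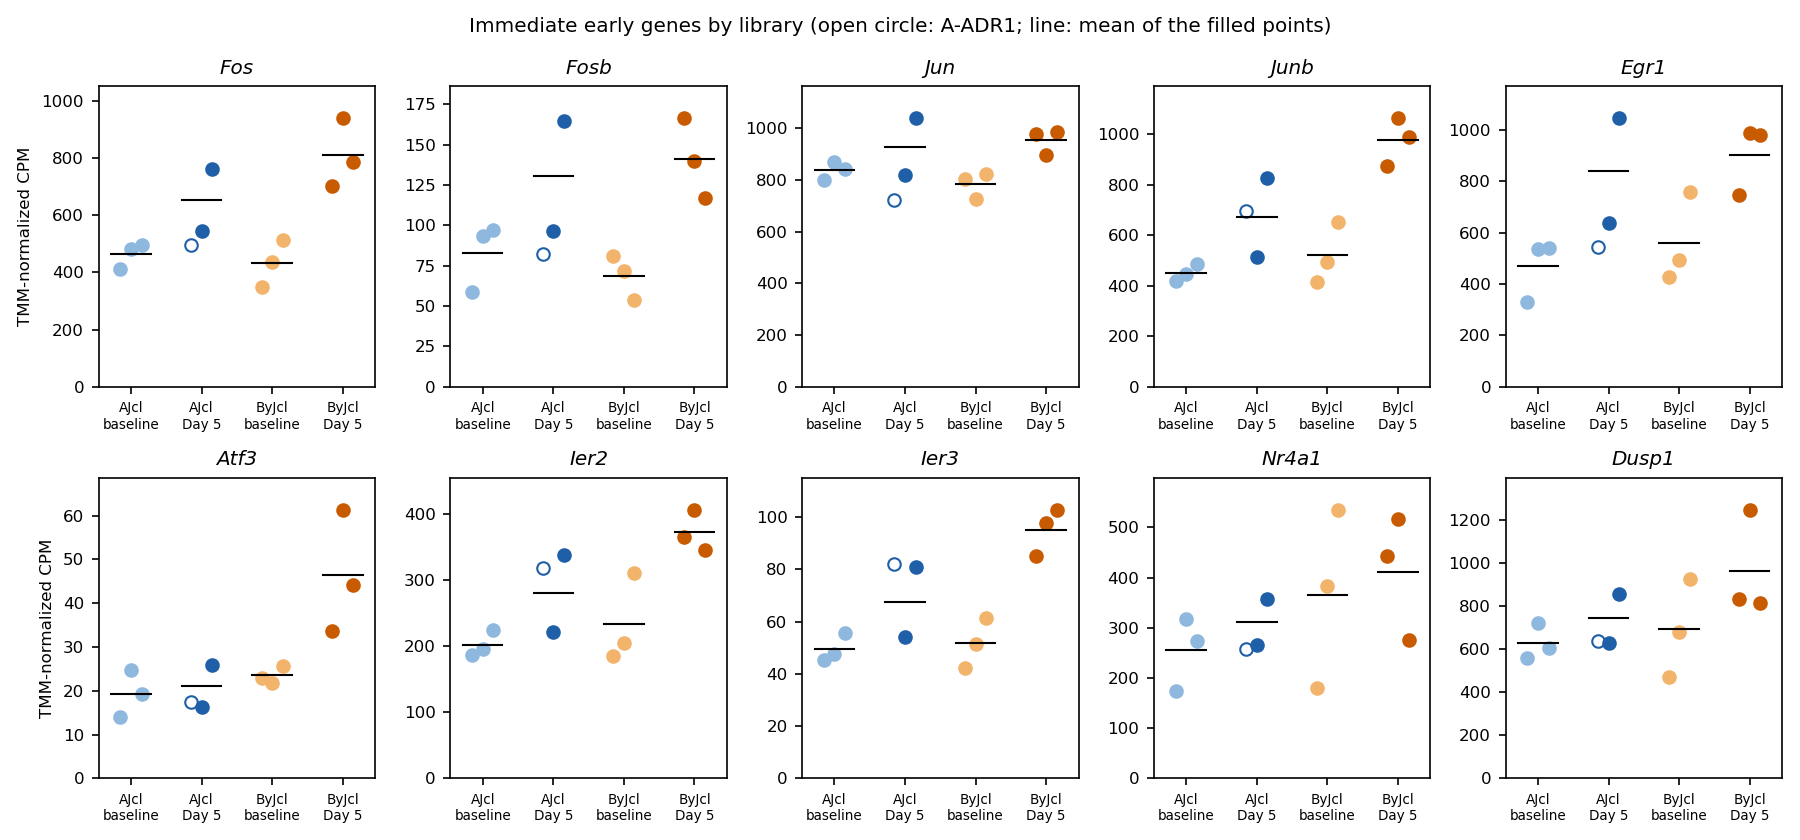
Level of each gene in every library, in TMM-normalized CPM on a linear axis from 0, by group. Filled points are the 11 libraries of the fit, open circles A-ADR1 and lines the mean of the filled points. The ByJcl Day 5 points lie above every ByJcl baseline point for 7 genes, with the exceptions of Egr1, Nr4a1 and Dusp1.

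Fos encodes the founding Fos family subunit of AP-1. Its level was 347, 437 and 512 CPM in the ByJcl baseline libraries and 703, 938 and 786 CPM at Day 5. In AJcl it was 411, 483 and 497 CPM at baseline and 494, 543 and 760.1 CPM at Day 5, where the value of 494 is A-ADR1. The ByJcl groups did not overlap, whereas A-ADR1 lay within the AJcl baseline range. Fos rose in ByJcl by 0.93 on the log2 scale (SE 0.18, adjusted p = 0.00979), and in AJcl the log2 fold change was 0.52 (SE 0.20, adjusted p = 0.391).

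Fosb, a Fos relative known for a long-lived splice form in the brain, was lower than Fos throughout. Its level was 81.1, 71.7 and 54.0 CPM in untreated ByJcl and 166, 139.8 and 117 CPM in ByJcl at Day 5. The AJcl libraries gave 58.7, 93.4 and 97.3 CPM at baseline and 82.5 (A-ADR1), 96.6 and 165 CPM at Day 5. The 3 ByJcl Day 5 libraries were all above the baseline ones, while in AJcl the replicate 3 library alone exceeded the baseline range. The log2 fold change was 1.06 in ByJcl (SE 0.26, adjusted p = 0.0262) and 0.68 in AJcl (SE 0.28, adjusted p = 0.451).

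Jun encodes the main partner of Fos in AP-1 and is itself a target of JNK. In ByJcl it measured 804, 725 and 825 CPM at baseline and 978, 899 and 985 CPM at Day 5. In AJcl it measured 802, 869 and 843 CPM at baseline and 724 (A-ADR1), 819 and 1039.5 CPM at Day 5. The ByJcl groups were apart by a small margin and the AJcl groups overlapped on both sides. Jun was not called in either substrain, with log2 fold changes of 0.31 in ByJcl (SE 0.13, adjusted p = 0.144) and 0.17 in AJcl (SE 0.14, adjusted p = 0.770).

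Junb encodes a Jun relative that can restrain Jun on some promoters. Its ByJcl levels were 416, 492 and 652 CPM at baseline and 876, 1063 and 991 CPM at Day 5. Its AJcl levels were 418, 448 and 485 CPM at baseline and 695 (A-ADR1), 514 and 827 CPM at Day 5. Every Day 5 library of a substrain lay above every baseline library of that substrain. Junb rose in ByJcl with a log2 fold change of 0.94 (SE 0.20, adjusted p = 0.0150), and in AJcl the value was 0.60 (SE 0.22, adjusted p = 0.360).

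Atf3 encodes a stress-induced factor of the ATF/CREB family and had the lowest level of the 10. In untreated ByJcl it measured 23.0, 21.9 and 25.6 CPM, and at Day 5 it measured 33.5, 61.3 and 44.1 CPM. In AJcl it measured 14.0, 24.7 and 19.2 CPM at baseline, against 17.4 (A-ADR1), 16.2 and 25.9 CPM at Day 5. The ByJcl groups stood apart, and the AJcl groups covered nearly the same range. Atf3 rose in ByJcl with a log2 fold change of 1.00 (SE 0.26, adjusted p = 0.0343), whereas the AJcl value was 0.15 (SE 0.29, adjusted p = 0.917).

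Egr1 encodes a zinc-finger factor of growth factor responses. It measured 426, 493 and 758 CPM in untreated ByJcl and 744, 985 and 980.4 CPM in ByJcl at Day 5. In AJcl it measured 329.6, 535 and 539.8 CPM at baseline and 544 (A-ADR1), 636 and 1044 CPM at Day 5. The ByJcl groups overlapped through baseline replicate 3, and the AJcl groups did not overlap although A-ADR1 was only just above the baseline libraries. Egr1 had the largest AJcl log2 fold change of the 10, 0.87 (SE 0.30, adjusted p = 0.321), and in ByJcl it was 0.72 (SE 0.27, adjusted p = 0.114), neither called.

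Nr4a1 encodes an orphan nuclear receptor that needs no ligand for activity. Its ByJcl levels were 180.3, 382 and 535 CPM at baseline and 442, 517 and 275 CPM at Day 5, and its AJcl levels were 174, 318 and 274 CPM at baseline and 257 (A-ADR1), 266 and 358 CPM at Day 5. The groups overlapped in both substrains, and the highest of all 12 values was an untreated ByJcl library. The log2 fold change was 0.20 in ByJcl (SE 0.37, adjusted p = 0.771) and 0.31 in AJcl (SE 0.41, adjusted p = 0.871). The spread of Nr4a1 between replicates, a biological coefficient of variation of 0.313, was above that of 97.9% of genes of like level.

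Ier2 and Ier3 are small early response genes, the former encoding a nuclear protein and the latter a protein linked to cell survival. Ier2 measured 186, 205 and 312 CPM in untreated ByJcl and 366, 407 and 346 CPM at Day 5, with no overlap, but the log2 fold change of 0.70 was not called (SE 0.21, adjusted p = 0.0532). In AJcl Ier2 measured 187, 196 and 224 CPM at baseline and 319 (A-ADR1), 222 and 339 CPM at Day 5, a log2 fold change of 0.50 (SE 0.23, adjusted p = 0.510). The AJcl replicate 2 library sat just under the highest AJcl baseline value. Ier3 measured 42.4, 51.5 and 61.5 CPM in untreated ByJcl and 85.1, 97.7 and 103 CPM at Day 5, and rose by 0.91 on the log2 scale (SE 0.17, adjusted p = 0.00892), the smallest adjusted p of the 10. In AJcl Ier3 measured 45.3, 47.5 and 55.6 CPM at baseline and 82.0 (A-ADR1), 54.3 and 81.1 CPM at Day 5, a log2 fold change of 0.48 (SE 0.19, adjusted p = 0.408). As for Ier2, replicate 2 was the AJcl Day 5 library that stayed within the baseline range.

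Dusp1 encodes the phosphatase that switches off MAP kinases and so limits the response of the other genes. Its level was 470.2, 678 and 926 CPM in untreated ByJcl and 830.4, 1247 and 816 CPM at Day 5. In AJcl its level was 559.9, 721 and 603 CPM at baseline and 638 (A-ADR1), 630.6 and 857 CPM at Day 5. Untreated ByJcl replicate 3 was above both of the lower ByJcl Day 5 libraries, and the AJcl groups also overlapped. Dusp1 was not called, with a log2 fold change of 0.51 in ByJcl (SE 0.25, adjusted p = 0.218) and 0.27 in AJcl (SE 0.28, adjusted p = 0.826).

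**Figure D2:**
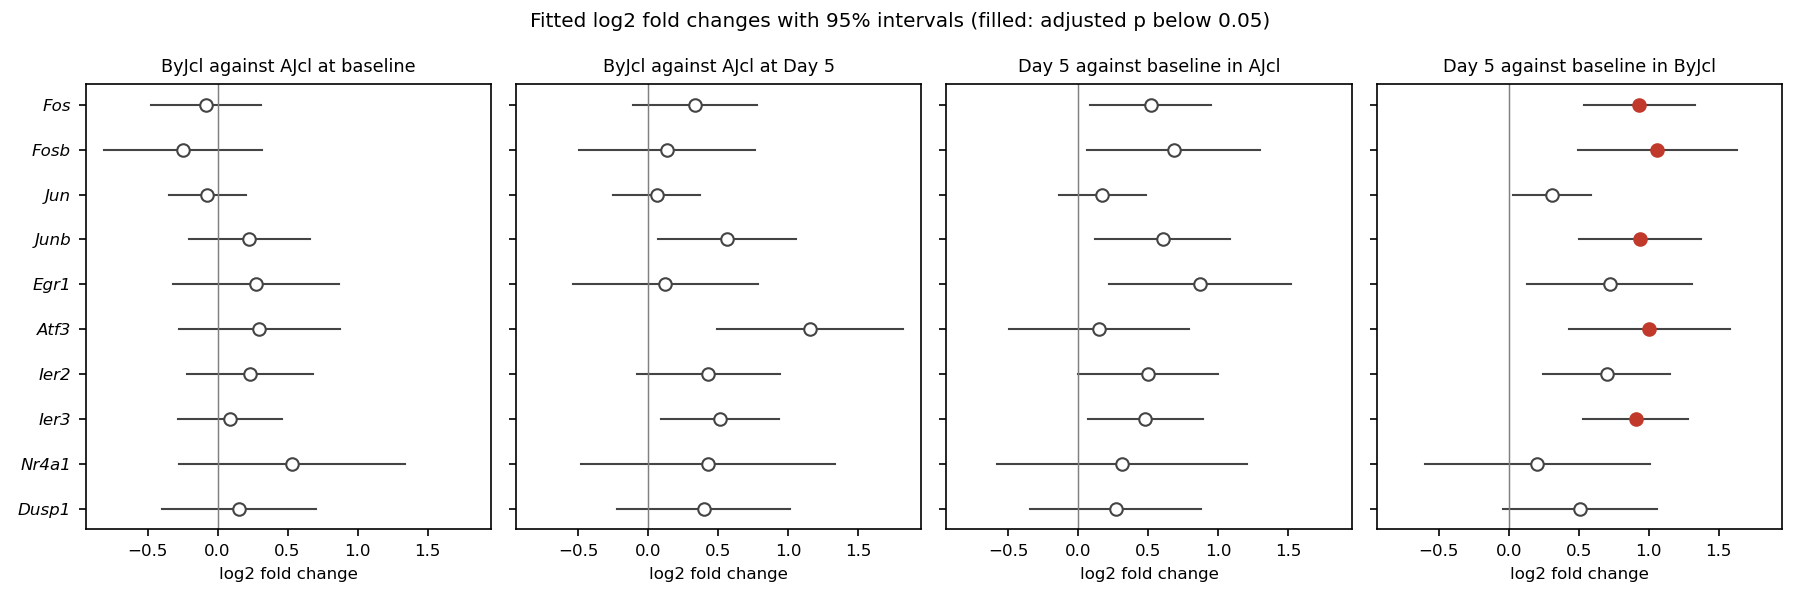
Fitted log2 fold change of each gene in the 4 comparisons between groups (x axis, with 95% intervals), over 11 libraries. Filled red points mark an adjusted p below 0.05, which are Fos, Fosb, Junb, Atf3 and Ier3 in ByJcl at Day 5 against baseline. No gene is filled in the other 3 panels.

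Of the 10 genes, 7, namely Fos, Fosb, Jun, Junb, Atf3, Ier2 and Ier3, had all 3 ByJcl Day 5 libraries above all 3 baseline libraries, where 15.9% of the tested genes did so. The calls rested on single libraries to different degrees. Fos and Ier3 were called in each of the 11 fits that left out 1 library. Without ByJcl baseline replicate 1 there were 3 calls, with adjusted p = 0.0593 for Junb and 0.0910 for Atf3. Without ByJcl baseline replicate 2 there were 2 calls, and the adjusted p was 0.0802 for Fosb, 0.0660 for Junb and 0.118 for Atf3. Without ByJcl Day 5 replicate 2 there were also 2, and the adjusted p was 0.0796 for Fosb, 0.0634 for Junb and 0.145 for Atf3. In these 3 fits the share of all genes called higher was 2.80%, 2.27% and 2.26%, and the log2 fold changes of the genes whose calls were lost stayed between 0.75 and 1.08. Fosb was further lost without ByJcl baseline replicate 3 (adjusted p = 0.0898) or Day 5 replicate 1 (adjusted p = 0.0681), and Atf3 without ByJcl baseline replicate 3 (adjusted p = 0.0745). That last fit called Ier2 (adjusted p = 0.0196). With A-ADR1 added, 5 of the 10 genes were again called, where 4.41% of all genes were called higher.

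Day 5 against baseline in AJcl gave no call among the 10 genes in edgeR or in DESeq2, with 5 of them at an unadjusted p below 0.05 in edgeR. Over all genes tested 0.312% were called, DESeq2 called 1.77%, and 9.80% had an unadjusted p below 0.05 in edgeR. The log2 fold changes were positive for all 10, with a median of 0.49 against -0.01 over all genes, and ran from 0.15 for Atf3 to 0.87 for Egr1. Junb and Egr1 alone had 3 Day 5 libraries above the 3 baseline libraries, where 6.73% of tested genes did so over 12 libraries. The AJcl Day 5 group in the fit is 2 libraries that differ, and replicate 3 was the higher for all 10 genes. Without replicate 3 the median log2 fold change was 0.11, and without replicate 2 it was 0.75. This comparison and the ByJcl one use different libraries, so their values stand side by side without a shared control.

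ByJcl was compared with AJcl at baseline to ask whether the substrains differed before ADR. None of the 10 genes was called in edgeR or DESeq2, none had an unadjusted p below 0.05 in edgeR, and of all genes tested edgeR called 0.159% and DESeq2 0.594%, and 8.34% had an unadjusted p below 0.05. For no gene did the 3 ByJcl libraries lie above the 3 AJcl libraries, against 8.22% of all genes. Log2 fold changes of ByJcl relative to AJcl were positive for 7 genes and negative for 3, with a median of 0.19. The median became -0.04 without ByJcl baseline replicate 3 and 0.33 without ByJcl baseline replicate 1. The extremes were Nr4a1 at 0.53 (SE 0.37, adjusted p = 0.666) and Fosb at -0.25 (SE 0.26, adjusted p = 0.754). Between them lay Atf3 at 0.30, Egr1 at 0.27, Ier2 at 0.23, Junb at 0.23, Dusp1 at 0.15, Ier3 at 0.09, Jun at -0.07 and Fos at -0.08. The 95% interval of the difference was narrowest for Jun, from -0.35 to 0.20, and widest for Nr4a1, from -0.27 to 1.34.

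At Day 5 the same comparison gave positive log2 fold changes for all 10 genes, with a median of 0.41 against 0.00 over all genes. None was called in edgeR and 3 had an unadjusted p below 0.05, where of all genes tested 0.165% were called and 14.0% had an unadjusted p below 0.05. Atf3 was farthest apart at 1.16 (SE 0.30, adjusted p = 0.157), followed by Junb at 0.56 (SE 0.22, adjusted p = 0.310) and Ier3 at 0.51 (SE 0.19, adjusted p = 0.283). DESeq2 called Atf3 (adjusted p = 0.00671) and 2.05% of all genes higher, where the 7 settings other than leaving out a library gave adjusted p from 0.00671 to 0.171. Junb, Atf3, Ier2 and Ier3 had 3 ByJcl libraries above all 3 AJcl libraries, A-ADR1 included, against 9.02% of all genes. The lowest of the ByJcl Day 5 values of Atf3, 33.5 CPM, exceeded the highest AJcl value of 25.9 CPM. The remaining log2 fold changes were 0.43 for Ier2, 0.43 for Nr4a1, 0.40 for Dusp1, 0.33 for Fos, 0.13 for Fosb, 0.12 for Egr1 and 0.06 for Jun. Without AJcl Day 5 replicate 3 the median was 0.69, and without replicate 2 it was 0.16, with Fosb, Jun and Egr1 then below 0. Cell type markers are given for the same comparison beside their baseline values. At Day 5 all 8 podocyte markers had lower levels in ByJcl, with a median log2 fold change of -0.66 and 5 at an unadjusted p below 0.05, and all 8 proximal tubule markers were lower, with a median of -0.95 and none at an unadjusted p below 0.05. All 5 distal tubule and collecting duct markers were lower, with a median of -1.35 and 2 at an unadjusted p below 0.05. Of 9 immune cell markers 8 had higher levels in ByJcl, with a median of 1.18 and 5 at an unadjusted p below 0.05. At baseline the proximal tubule markers were lower in 8 of 8 (median -0.96), the distal tubule and collecting duct markers lower in 5 of 5 (median -1.34) and the immune cell markers higher in 9 of 9 (median 0.81), none called by edgeR, while the podocyte markers were higher in 8 of 8 (median 0.22). At Day 5 the smooth muscle marker Tagln was called higher at 1.15 (SE 0.18, adjusted p = 0.0436), and at 0.93 with A-ADR1 added it was not (adjusted p = 0.0599). With A-ADR1 added, 1 mesangial marker was called higher instead, and the replicate block called no smooth muscle or mesangial marker. No other marker was called by edgeR over 11 libraries. DESeq2 called Tagln and 3 further markers, the distal tubule marker Calb1 lower and the mesangial marker Serpine2 and immune cell marker Cd68 higher. The part of these markers in the values of the 10 genes was not tested.

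The substrain by treatment interaction tests whether the difference between Day 5 and baseline was itself larger in ByJcl than in AJcl. It called 0 of the 17002 genes (0%) in edgeR, where 1363 (8.02%) had an unadjusted p below 0.05, and 22 (0.129%) in DESeq2, none of them among the 10. None of the 10 had an unadjusted p below 0.05. Atf3 came nearest, with a log2 difference of 0.86 (SE 0.39, 95% interval -0.01 to 1.73, adjusted p = 0.623). Of the 10 differences 8 were positive, and Egr1 at -0.15 (SE 0.40) and Nr4a1 at -0.11 (SE 0.55) were negative. The calls in ByJcl and their absence in AJcl are therefore not shown to differ between the substrains.

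The 10 genes varied together between libraries of the same group. AJcl baseline replicate 1 was the lowest of its group for all 10 genes, AJcl Day 5 replicate 3 the highest for 9, ByJcl baseline replicate 3 the highest for 9, and ByJcl Day 5 replicate 2 the highest for 7. After subtracting group means, Pearson's r over the 11 libraries was positive in 44 of the 45 pairs of genes, with a median of 0.668. The closest pair was Junb and Ier3 (r = 0.964), followed by Junb and Ier2 (r = 0.946) and by Fos and Junb (r = 0.942). Fosb stood apart, with a median r of 0.173 with the other 9 genes, and its r with Dusp1 was -0.000236. Jun also followed the rest less, with a median r of 0.493, and varied little between replicates. These points share their libraries and their depths, and no p is attached to them. AJcl baseline replicate 1 was the shallowest of the 12 libraries and ByJcl baseline replicate 3 the deepest, and the part of depth in this order was not tested.

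**Figure D3:**
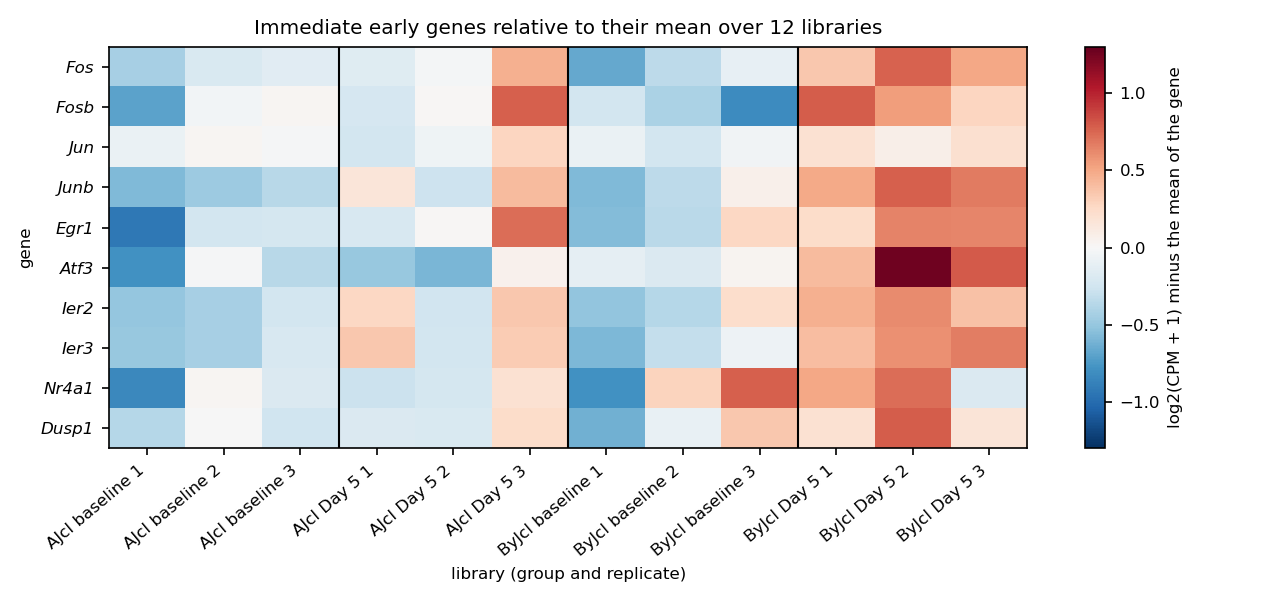
Level of each gene (rows) in each of the 12 libraries (columns, by group and replicate) as log2(CPM + 1) minus the mean of the gene. Red is above and blue below the mean of the gene. AJcl baseline replicate 1 and ByJcl baseline replicate 1 are blue for nearly all genes, and Fosb in ByJcl baseline replicate 3 is low where the other genes of that library are mostly near or above their means.

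The heat shock genes, whose chaperones are likewise known to respond to warm enzymatic digestion, had log2 fold changes of the opposite sign, few of them called. All 10 of the list had negative log2 fold changes at Day 5 in both substrains, with a median of -1.14 in ByJcl and -1.31 in AJcl. In ByJcl 2 of the 10 fell, where 4.83% of all genes tested were called lower, and in AJcl none was called by edgeR or DESeq2, with 8 at an unadjusted p below 0.05 against 9.80% of all genes. The small chaperone Hspb1 fell by 1.70 in ByJcl (SE 0.39, adjusted p = 0.0200) and the co-chaperone Hsph1 by 3.00 (SE 0.74, adjusted p = 0.0275). In AJcl the mitochondrial chaperones Hspd1 and Hspe1 had the smallest unadjusted p, with log2 fold changes of -0.98 and -0.94 (adjusted p = 0.337 and 0.370).

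The heat shock level differed widely between untreated libraries. Hspa1a, an inducible chaperone gene that can share reads with its near-identical copy Hspa1b, measured 899, 745 and 96.0 CPM in untreated AJcl and 1773, 137 and 9.79 CPM in untreated ByJcl. At Day 5 it measured 27.7 (A-ADR1), 27.2 and 22.1 CPM in AJcl and 184, 40.1 and 25.7 CPM in ByJcl. Untreated ByJcl replicate 3 was thus below every Day 5 library. The mean log2(CPM + 1) of the 10 heat shock genes in untreated ByJcl was 9.62, 8.34 and 6.36 in replicates 1, 2 and 3, where the mean of the 10 immediate early genes was 7.58, 7.83 and 8.13. The order of libraries by heat shock level was the reverse of the order by immediate early level in both ByJcl groups. In AJcl, baseline replicate 1 was highest for heat shock (9.21) and lowest for the immediate early genes (7.49), and Day 5 replicate 3 was lowest for heat shock (6.35) and highest for the immediate early genes (8.44). The full order was reversed in neither AJcl group. At baseline replicate 3 was lowest for heat shock (8.16) but replicate 2 highest for the immediate early genes (7.884). At Day 5 A-ADR1 was highest for heat shock (7.62) but replicate 2 lowest for the immediate early genes (7.876). Whether these values bear on the rise of the 5 called genes was not tested.

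Other genes of the same response were read from lists of related factors. Of 11 AP-1 and small Maf partners, 4 rose and none fell in ByJcl at Day 5, where 5.75% of all genes tested were called higher and 4.83% lower. The same shares apply to the other lists in ByJcl. In AJcl edgeR called 0.312% of all genes tested and DESeq2 1.77%, and these shares apply to each list there. Maff, a small Maf protein without an activation domain, rose by 3.18 (SE 0.37, adjusted p = 0.00142), from 4.05, 7.31 and 12.0 CPM to 48.5, 88.8 and 70.6 CPM. Fosl1, which encodes the Fos relative FRA1, rose by 4.44 (SE 0.59, adjusted p = 0.00201), from 6, 4 and 5 counts in untreated ByJcl to 55, 122 and 128 counts at Day 5. Fosl2 rose by 1.19 (SE 0.23, adjusted p = 0.0108). In AJcl 1 of the 11 was called, Maff, at 2.65 (SE 0.39, adjusted p = 0.0185), from 4.42, 4.98 and 4.84 CPM to 21.0 and 37.4 CPM, with A-ADR1 at 27.0 CPM. Maff thus passed the test in both substrains, which none of the 10 immediate early genes did.

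Of 18 other early transcription factors, 9 rose in ByJcl at Day 5 and none fell, with a list median of 0.92. Those with the smallest adjusted p were Cebpd at 1.32 (SE 0.18, adjusted p = 0.00229), an acute-phase factor, Ier5 at 0.67 (SE 0.12, adjusted p = 0.00619), a relative of Ier2, and Myc at 1.76 (SE 0.32, adjusted p = 0.00785). None was called in AJcl, where Cebpd at 1.04 (adjusted p = 0.0610) and Egr3 at 2.05 (adjusted p = 0.192) had the smallest unadjusted p, 6 were at an unadjusted p below 0.05 (9.80% of all genes, also for the lists that follow), and DESeq2 called 3. Of 18 tested early effector genes 7 rose and none fell in ByJcl, led by the growth arrest genes Gadd45b at 2.24 (SE 0.29, adjusted p = 0.00171) and Gadd45g at 0.97 (SE 0.15, adjusted p = 0.00377) and by the matricellular gene Ccn1 at 1.05 (SE 0.23, adjusted p = 0.0159). In AJcl none was called, with 4 at an unadjusted p below 0.05, Gadd45b at 1.31 (adjusted p = 0.131) and the growth factor gene Hbegf at -0.71 (adjusted p = 0.144), the 2 that DESeq2 called.

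Of 21 feedback inhibitors, the list closest in role to Dusp1, 8 rose and none fell in ByJcl at Day 5. The cytokine signalling inhibitor Socs3 rose by 1.35 (SE 0.21, adjusted p = 0.00406), the NF-kappa-B inhibitor Nfkbia by 1.00 (SE 0.17, adjusted p = 0.00506) and the ubiquitin-editing enzyme Tnfaip3 by 1.85 (SE 0.36, adjusted p = 0.00999). In AJcl none was called, with 7 at an unadjusted p below 0.05 and 3 called by DESeq2, and Nfkbia was at 0.69 (adjusted p = 0.193) and Tnfaip3 at 1.45 (adjusted p = 0.204). Of 21 upstream kinases and factors, which act mainly through phosphorylation, none rose and 1 fell in ByJcl, the stress-activated kinase Mapk14 at -0.46 (SE 0.12, adjusted p = 0.0347), and the list median was 0.03. In AJcl none was called by edgeR or DESeq2, 3 were at an unadjusted p below 0.05, and the smallest unadjusted p belonged to the serum response factor partner Mrtfb at 0.53 (adjusted p = 0.233) and the kinase Rps6ka5 at 0.41 (adjusted p = 0.290).

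**Figure D4:**
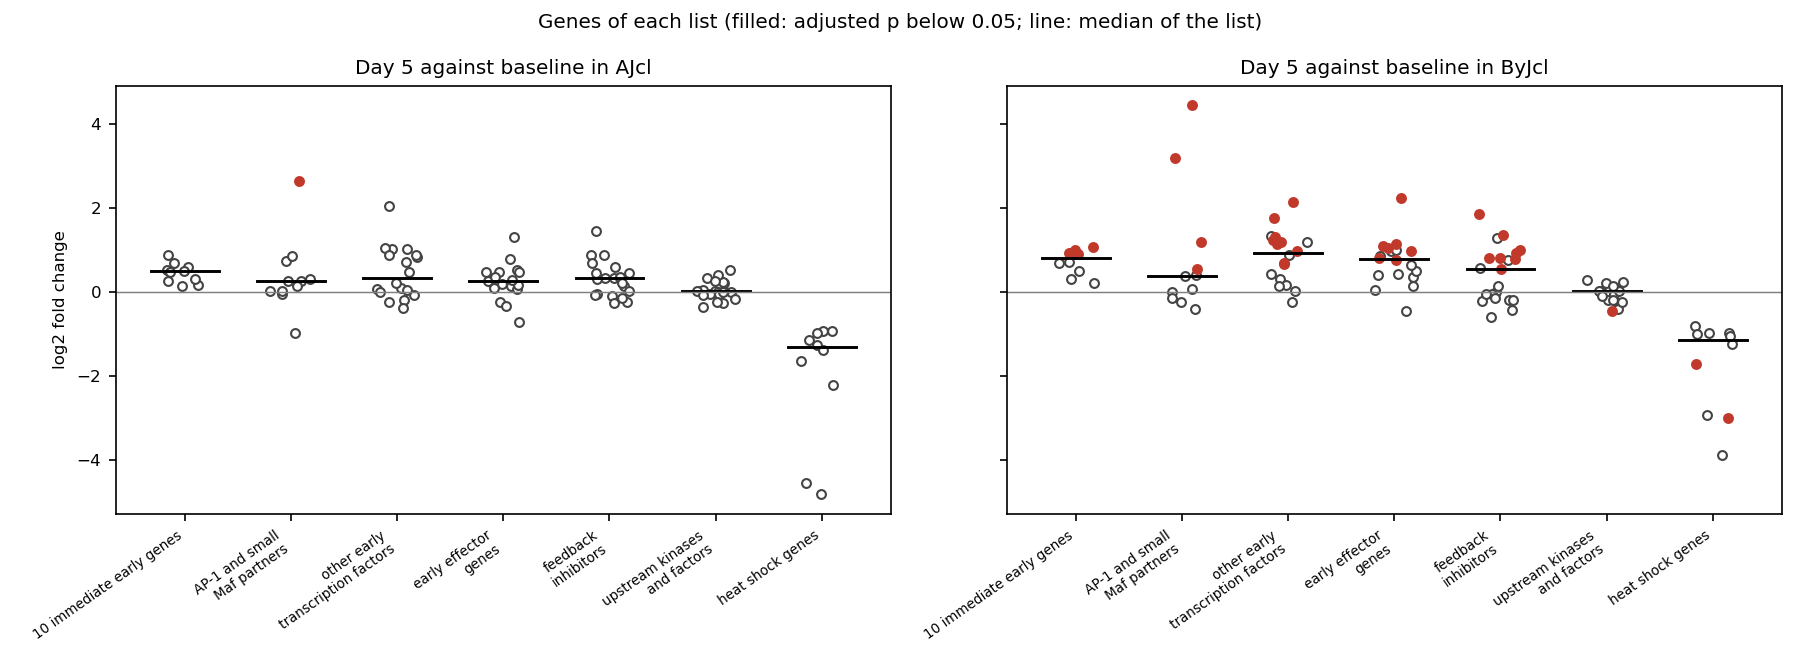
Log2 fold change of Day 5 against baseline for each gene of 7 lists (x axis), in AJcl (left) and ByJcl (right). Filled points have an adjusted p below 0.05 and lines mark list medians. The medians of the early gene lists lie above 0 in ByJcl, that of the upstream kinases and factors lies at 0.03, and all heat shock genes lie below 0 in both panels.

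Between substrains no gene of these 6 lists was called by edgeR over 11 libraries at baseline, at Day 5 or in the interaction. With A-ADR1 added, Fosl1 was called higher in ByJcl at Day 5 at 3.56 (SE 0.60, adjusted p = 0.0277). DESeq2 called 11 at Day 5, all higher in ByJcl, where it called 2.05% of all genes higher, and none at baseline or in the interaction. At an unadjusted p below 0.05 in edgeR were 26 of the 99 genes at Day 5, 4 at baseline and 9 in the interaction, against 14.0%, 8.34% and 8.02% of all genes tested. At Day 5 the smallest unadjusted p of each list belonged to Fosl1 at 3.22 (adjusted p = 0.0902) and Mafk at 0.51 (0.144), the nuclear receptor Nr4a3 at 1.88 (0.138) and Ier5 at 0.51 (0.156), the kinase Plk2 at 1.05 (0.143) and Ccn1 at 0.96 (0.166). They were followed by the phosphatase Dusp5 at 1.37 (0.250) and Nfkbia at 0.54 (0.257), the kinase Mapkapk2 at 0.31 (0.245) and the coactivator Mrtfa at 0.28 (0.331), and Hspa1a at 1.80 (0.630) and Hsph1 at -0.80 (0.656), with the adjusted p in parentheses. At Day 5 the log2 fold change was positive for 7 of 11 AP-1 and small Maf partners, 16 of 18 transcription factors, 17 of 18 effectors, 17 of 21 feedback inhibitors, 10 of 21 upstream kinases and factors and 3 of 10 heat shock genes, against 50.3% of all genes. At baseline it was positive for 8 of 11, 10 of 18, 13 of 18, 20 of 21, 15 of 21 and 3 of 10, against 51.4%. At baseline the corresponding genes were Maff at 0.73 (0.606) and Atf7 at 0.23 (0.661), Irf1 at 0.46 (0.604) and Cebpb at 0.57 (0.611), Plk2 at 0.40 (0.630) and Gadd45g at -0.22 (0.671). The other lists had Spry2 at 0.39 (0.573) and Nab2 at 0.38 (0.577), Elk1 at 0.27 (0.613) and Mrtfa at 0.20 (0.617), and Hspb1 at 0.51 (0.684) and Hspd1 at -0.34 (0.721). For the interaction they were Fosl1 at 3.69 (0.620) and Mafk at 0.35 (0.634), Ier5 at 0.67 (0.620) and Nfil3 at 1.58 (0.620), Phlda1 at 1.33 (0.620) and Ptgs2 at 1.20 (0.620). The others were Spred2 at -0.45 (0.623) and Dusp5 at 0.99 (0.689), Srf at 0.38 (0.634) and Mapkapk2 at 0.27 (0.640), and Hspb1 at -0.56 (0.806) and Hspa1a at 1.63 (0.856).

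The mean profile of the 10 genes over the 11 libraries was used to find other genes of like pattern, as a description. The closest were the early gene Egr3 (r = 0.978), the actin nucleation gene Whamm (0.976), Tnfaip3 (0.974), Fosl2 (0.972), the fibronectin gene Fn1 (0.968), the mRNA decay gene Zfp36 (0.964), Myef2 (0.961), the stress-induced phosphatase subunit Ppp1r15a (0.961), the receptor kinase gene Epha2 (0.960) and the phosphate transporter gene Slc20a2 (0.960). The 100 closest of 16992 genes had r of at least 0.927. Among these 100 were 7 of the 21 feedback inhibitors (Dusp6, Dusp8, Zfp36, Zfp36l2, Btg2, Socs3 and Tnfaip3), 4 of the 18 other transcription factors (Egr3, Klf4, Myc and Cebpd) and 3 of the 11 AP-1 and small Maf partners (Fosl2, Jund and Maff). No early effector gene, upstream factor, heat shock gene or cell type marker was among them. Within the 10, r with the profile ran from 0.722 for Nr4a1 and 0.773 for Fosb to 0.979 for Junb. Each of the 10 is itself part of the profile, which raises these values.

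Some cell type markers also differed in the ByJcl comparison. The summed levels of the marker lists are given as CPM of total counts, without the TMM scaling used for the 10 genes. All 8 podocyte markers fell in ByJcl at Day 5, with a median log2 fold change of -1.20. Of all genes tested in ByJcl 4.83% were called lower and 5.75% higher, shares that also apply to the other marker lists. The summed podocyte level went from between 17462 and 20237 CPM to between 7079 and 10794 CPM. In AJcl edgeR called none of the 8, with 2 at an unadjusted p below 0.05, against 0.312% and 9.80% of all genes. The podocyte sum in AJcl was between 14821 and 19675 CPM at baseline and between 9249 (A-ADR1) and 14981 CPM at Day 5. The interaction, which tests whether the change differed between substrains, was negative for all 8, with a median of -0.87. Of the 8, 7 were at an unadjusted p below 0.05, against 8.02% of all genes, and edgeR called none (0% of all genes). The podocyte calls are therefore not shown to differ between the substrains. The smooth muscle list summed to between 292 and 383 CPM in untreated ByJcl and to between 514 and 627 CPM at Day 5. Of its 4 markers 1 was called higher, Tagln, from 5328, 4975 and 8646 counts to 13392, 15424 and 13431 counts. Acta2 and Myh11 overlapped between the ByJcl groups. Mesangial markers summed to between 2064 and 2373 CPM and between 2385 and 3166 CPM. Of the 5 mesangial markers 3 had positive and 2 negative log2 fold changes, and 1 had no overlap between the ByJcl groups. That marker, Serpine2, was the 1 called higher, from 24781, 23628 and 26479 counts to 42592, 38055 and 45056 counts. Glomerular endothelial markers summed to between 7489 and 8678 CPM at baseline and between 4651 and 6914 CPM at Day 5, with 2 of 7 lower. In bulk tissue, fewer cells of a type and less RNA per cell cannot be told apart, and the part of these markers in the rise of Fos, Fosb, Junb, Atf3 and Ier3 was not tested.

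The summed levels of the tubular and immune cell lists overlapped between the ByJcl groups. Proximal tubule markers summed to between 415 and 1874 CPM at baseline and between 362 and 1983 CPM at Day 5, and distal tubule and collecting duct markers to between 131 and 533 CPM and between 96.5 and 503 CPM, with 0 of 8 and 0 of 5 called. Immune cell markers summed to between 40.3 and 64.1 CPM and between 40.7 and 58.4 CPM, with 1 of 9 called by edgeR, Cd68, which was higher. DESeq2 also called Csf1r, which was lower. Of 3 erythroid genes 1 was tested, Alas2, and it fell by 3.50 in ByJcl and by 3.46 in AJcl, with no overlap between baseline and Day 5 counts in either substrain. Under the replicate block Alas2 was still called in ByJcl and no longer in AJcl. At Day 5 the proximal tubule sum in AJcl was between 1763 and 5033 CPM, with A-ADR1 the highest. The untested erythroid genes Hba-a1 and Hbb-bs had 0 counts in all 12 libraries, and no tested marker was at 0 in any.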

How the data were processed

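Poly(A)-selected, strand-specific RNA-seq libraries were made from isolated glomeruli of 12 samples, 3 for each of 4 groups taken from the labels, which give batch 1 for all. Per the study's methods, the authors used FastQC, Trimmomatic, STAR (GRCm39) and featureCounts in that order and deposited whole-number counts for each gene symbol, neither normalized nor pooled, in a baseline table and a Day 5 table. The annotation and the strand setting are not given in the sources used here. Of counts from 1 to 49, between 77.1% and 82.9% were even, so counts were also halved as an alternative. Columns of other samples: 0.

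The counts were fitted with edgeR 4.0.16 in R 4.3.3 (filterByExpr, TMM, quasi-likelihood test, 1 coefficient per group) over 11 libraries without A-ADR1, and 5 contrasts were adjusted by Benjamini-Hochberg over 17002 genes at 0.05. The study tests with DESeq2, which was an alternative here (1.42.0), as were the 12 libraries, RLE size factors, no filter on low counts, at least 1 CPM in 3 libraries, a replicate block and leaving out each library. The fit was tested on simulated data. Replicate pairs differed beyond sampling noise (chi-square per degree of freedom 44.6 to 271), so none was a copy. Python 3.11.15, pandas 2.3.3 and matplotlib 3.10.9 were used for tables and figures.

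The 10 genes and all lists were chosen with earlier results of these data known. All 10 are named in each contrast. From each other list up to 3 called genes in each direction with the smallest adjusted p are named, or, where none is called, the 2 with the smallest unadjusted p. Genes of like pattern are the 10 with the highest Pearson r to the mean standardized log2 CPM profile. The result of 1 marker gene is not reported here.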

Additional observations from a re-analysis of the deposited data

Results flagged for a closer look

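A-ADR1, the AJcl Day 5 library outside the fit, had 4 of the 10 genes above the highest untreated AJcl library, and 6 not above it. Of all 17002 genes tested, 36.5% were above it in this library. The count of 4 of 10 is therefore close to the share of all genes, and does not set the 10 genes apart. Junb measured 695 CPM against a baseline maximum of 485 CPM, Ier2 319 CPM against 224 CPM, Ier3 82.0 CPM against 55.6 CPM, and Egr1 544 CPM against 539.8 CPM. The Egr1 gap is narrow beside the spread of the untreated AJcl libraries (coefficient of variation 25.6%, n = 3). For Fos, Fosb, Jun, Atf3, Nr4a1 and Dusp1, A-ADR1 lay at or below the untreated maximum. In this library the proximal tubule markers summed to 5033 CPM of total counts, the highest of the 12, and the part of tubular RNA in these values was not tested.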

How the results depend on the processing

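In ByJcl at Day 5 the 5 calls among the 10 genes held with all 12 libraries and with at least 1 CPM in 3 libraries, where 4.41% and 6.43% of all genes were called higher. RLE size factors, no filter and halved counts each called 6 genes, adding Ier2, with 6.15%, 4.08% and 6.42% of all genes called higher, and DESeq2 and the replicate block each called 7, adding Ier2 and Egr1. DESeq2 called 2694 genes in this comparison (8.95% higher), edgeR 1800 (5.75% higher) and the replicate block 4.91% higher. With all 12 libraries 1197 genes were called in this comparison and 72 between substrains at Day 5. DESeq2 called 101 genes between substrains at baseline, 535 at Day 5 with 1 of the 10 genes among them (Atf3), 301 in AJcl and 22 in the interaction. Without the filter on low counts 56 genes were called between substrains at Day 5 and 99 in AJcl. Leaving out 1 library at a time gave 680 to 2056 called genes in ByJcl with 2 to 6 of the 10, 11 to 180 in AJcl, 12 to 29 between substrains at baseline, 9 to 218 at Day 5 and 0 to 5 in the interaction, with 0 of the 10 called in each fit of the last 4 comparisons. Among the related lists in ByJcl, DESeq2 called 13 early effector genes higher in place of 7 and 5 heat shock genes lower in place of 2, where it called 8.95% of all genes higher and 6.90% lower. It also called 1 feedback inhibitor lower, Spry1, and 1 upstream gene higher, Mapkapk2, both named after their values were seen. With all 12 libraries Mapk14, the 2 endothelial markers, the effector gene Plk3 and the feedback inhibitors Zfp36l2 and Btg2 were no longer called (adjusted p from 0.0504 to 0.109). No called value of the 10 genes changed direction under an alternative. The sign of uncalled values did vary, and in the interaction Egr1 kept its sign in 13 and Nr4a1 in 12 of 18 alternatives. The cause of these shifts was not tested.

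Libraries that share a replicate number share only the number, with correlations of their deviations from the group means between -0.238 and 0.374. The replicate block gave 26 called genes in AJcl and 1592 in ByJcl, with 0 and 7 of the 10 genes among them. Among the lists in ByJcl it ended the calls of Hsph1 (adjusted p = 0.0729), Mapk14, Cebpb, Gem, Plk3 and the endothelial marker Flt1 (adjusted p from 0.0526 to 0.0616 for these 5). The genes whose calls were lost were named after their values were seen.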
